A study of Mus musculus with 217 samples.

Results

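The guanylate-binding proteins are the genes Gbp2 to Gbp11, and all 10 were found by symbol among the 52550 genes counted in ribosome-bound RNA of mouse endothelial cells (ECs). The animals were adult C57BL/6J mice with the genotype Cdh5CreERT2/+; Rpl22HA/+, in which tamoxifen-activated Cre under the VE-cadherin (Cdh5) promoter puts an HA tag on the ribosomal protein Rpl22 in ECs. All groups carry these alleles and received tamoxifen. Brain, lung and heart were taken from control mice (0 hr) or at 6, 24, 48, 72 or 168 hr after an intraperitoneal injection of 10 mg/kg lipopolysaccharide (LPS), the endotoxin of the bacterial outer membrane. An antibody against the tag then pulled the ribosomes from the whole tissue, so that RNA of other cells can be carried along. Summing sequencing runs gave 98 libraries, of which 80 had at least 3% of their reads on genes and were used, with 4 to 6 libraries per tissue and time and 2 in lung at 24 hr. The labels do not say which libraries come from separate mice. In the deposited file names, 0 hr libraries of different tissues share mouse tags, so that these tissues may share mice. The p-values measure the spread between these libraries, which may in part be technical.

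Guanylate-binding proteins are large GTPases that interferons, above all interferon gamma, switch on in many cell types. They assemble on bacteria and on pathogen vacuoles inside the cell, where they help to expose LPS to the inflammatory caspase encoded by Casp4. The mouse genes sit in gene clusters that arose by duplication, and Gbp2 and Gbp5 end in a motif that receives a lipid (prenyl) anchor to membranes.

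In the GENCODE annotation of mm10 (GRCm38), 4 members lie on the plus strand of chromosome 3 between 142493978 and 142638008, in the order Gbp5, Gbp7, Gbp3 and Gbp2. The other 6 lie on the minus strand of chromosome 5 between 105014150 and 105346472, in the order Gbp8, Gbp9, Gbp4, Gbp10, Gbp6 and Gbp11. Gbp11 is annotated as a polymorphic pseudogene and the other members as protein-coding. Gbp6 and Gbp10 are close copies. Of the distinct 50-base stretches of their exons, 70.7% of those of Gbp6 and 84.1% of those of Gbp10 also occurred in transcripts of other genes, against 1.44% to 19.2% for the other members. Exons of both also overlap the gene Gm43302 on the same strand, by 1726 bases in Gbp6 and by 1792 bases in Gbp10. Since the authors' counter drops reads that match several places or several genes, the levels of Gbp6 and Gbp10 are uncertain and cover only part of their reads.

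The promoters are shown to give the sequence before the starts of the members on chromosome 3, which were among the genes that rose after LPS. RefSeq windows (GRCm38.p6, plus strand, 250 bases before to 50 after the start) were at hand for 4 of the 10 members. Capitals mark each match to GAAA, any 2 bases and GAAA, the core of the interferon-stimulated response element (ISRE), on either strand.
Gbp2, chr3:142620413-142620712: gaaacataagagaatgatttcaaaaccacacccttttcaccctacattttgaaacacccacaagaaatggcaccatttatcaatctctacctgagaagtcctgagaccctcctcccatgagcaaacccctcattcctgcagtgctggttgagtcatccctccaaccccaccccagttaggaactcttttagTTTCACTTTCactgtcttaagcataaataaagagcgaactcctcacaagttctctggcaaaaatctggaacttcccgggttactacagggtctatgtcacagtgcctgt
Gbp3, chr3:142559794-142560093: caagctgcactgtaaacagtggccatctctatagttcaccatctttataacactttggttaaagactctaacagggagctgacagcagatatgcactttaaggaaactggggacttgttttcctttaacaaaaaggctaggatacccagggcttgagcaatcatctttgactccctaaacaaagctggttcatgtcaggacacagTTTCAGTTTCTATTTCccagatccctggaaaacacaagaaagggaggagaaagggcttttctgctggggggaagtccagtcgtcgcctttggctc
Gbp5, chr3:142496684-142496983: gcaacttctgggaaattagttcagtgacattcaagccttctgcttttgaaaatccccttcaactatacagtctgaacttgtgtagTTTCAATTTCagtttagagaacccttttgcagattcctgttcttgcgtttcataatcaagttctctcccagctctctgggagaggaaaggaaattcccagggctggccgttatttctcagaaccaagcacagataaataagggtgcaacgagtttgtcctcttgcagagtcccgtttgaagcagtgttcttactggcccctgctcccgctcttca
Gbp7, chr3:142530086-142530385: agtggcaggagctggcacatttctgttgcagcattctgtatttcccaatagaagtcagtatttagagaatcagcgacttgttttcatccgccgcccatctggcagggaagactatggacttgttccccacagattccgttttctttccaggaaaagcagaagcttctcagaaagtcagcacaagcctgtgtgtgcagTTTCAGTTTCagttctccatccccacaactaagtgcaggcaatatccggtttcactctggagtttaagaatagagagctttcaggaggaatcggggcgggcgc
Each of these windows held a match, whose first base lay at -59 from the start in Gbp2, at -45 and -39 in Gbp3 (2 overlapping matches), at -165 in Gbp5 and at -53 in Gbp7. A further RefSeq window of Gbp3, at chr3:142560106-142560405, held none. Over all 32851 RefSeq windows of this length, 3.44% held the element. The element TTC, any 3 bases and GAA, searched on both strands and named GAS for the sites that interferon gamma signalling uses, was found in the windows of Gbp5 and Gbp7 and in 8.30% of all windows. The letters GGGA, any 4 bases and CC, a form of the site of NF-kappaB factors, were found in those of Gbp2 and Gbp5 and in 20.7% of all windows. A match to letters is not a measured binding site.

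Some libraries stood apart from their group, and the results that rest on them are given with and without them. The 6 hr libraries of library series 1, a set recognised by the pattern of the deposited file names and not labelled as a batch, are brain replicate 6, heart replicate 5 and lung replicate 4. Over 2928 other genes called higher by more than 1 on the log2 scale at 6 hr without it, heart replicate 5 lay at a median of -0.065 on a scale from 0 (the 0 hr mean) to 1 (the 6 hr mean of library series 2). Brain replicate 6 lay at 0.088 over 1052 such genes. Heart replicate 5 held 13138434 counts and brain replicate 6 held 10177111. Brain replicate 6 lay within the range of the 0 hr libraries of its tissue for every member but Gbp10. Heart replicate 5 lay above that range for every member but Gbp8 and Gbp10, just above it for Gbp2 and further above it for Gbp9. Lung replicate 4 had 284457 counts on genes, the fewest of the 80 libraries, and 314 of 410 such genes were at 0 in it. All other libraries used held 2678119 to 43417945 counts.

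Depth and tissue identity were unequal in further ways. All 10 endothelial markers were detected in each tissue, with a summed level at 0 hr of 1830 to 3374 CPM (counts scaled to library size, with TMM factors) in brain, 10505 to 11941 CPM in heart and 9880 to 16337 CPM in lung. Markers of neurons summed to 991 to 4070 CPM in the brain libraries at 0 hr and markers of alveolar epithelium to 2831 to 9256 CPM in those of lung, so that the immunoprecipitates held RNA of other cells. In such bulk samples, fewer cells of a type and less RNA per cell cannot be told apart.

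At 0 hr the heart ECs had the highest levels of most members. Gbp2 measured 218, 253, 257, 269 and 290.2 CPM in heart, against 36.2, 40.8, 49.9, 87.4 and 104 CPM in brain. In lung it measured 20.0, 25.6, 27.5 and 278 CPM, where replicate 4 is the high one. No brain library reached the level of any heart library, whereas the highest lung library lay within the heart range. Gbp9 measured 109 to 144 CPM in heart, 6.72 to 36.5 CPM in brain and 12.8 to 35.6 CPM in lung, and heart overlapped neither tissue.

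Of the 9 members with enough counts to test at 0 hr, 7 were lower in brain than in heart by edgeR's quasi-likelihood test over 17730 genes, where 22.8% of all genes were lower. They were Gbp2, Gbp3, Gbp4, Gbp5, Gbp6, Gbp7 and Gbp9. The log2 difference of brain minus heart was -2.99 (SE 0.38, adjusted p 7.4e-06) for Gbp9, -2.23 (SE 0.36) for Gbp7, -2.30 (SE 0.51) for Gbp2, -1.81 (SE 0.41) for Gbp5 and -1.06 (SE 0.34, adjusted p 0.016) for Gbp3. The same 7 were lower in lung than in heart, against 31.2% of all genes. Here the difference was -3.37 (SE 0.48, adjusted p 3.3e-05) for Gbp5 and -1.22 (SE 0.33, adjusted p 0.0056) for Gbp4. Gbp8 went the other way and was higher in lung than in heart by 1.32 (SE 0.48, adjusted p 0.026), with 29.9% of all genes higher, although at 0.744 to 3.19 CPM in lung and 0.337 to 1.15 CPM in heart it was scarce in both. Among the markers of other cells, neutrophil genes summed to 0.933 to 1.55 CPM in heart, 4.94 to 47.7 CPM in brain and 41.4 to 207 CPM in lung at 0 hr. Macrophage and monocyte genes summed to 27.5 to 46.0 CPM in heart and 18.5 to 68.2 CPM in brain, which overlap, and to 191 to 516 CPM in lung, and the endothelial markers had a median sum of 10828 CPM in heart against 2528 CPM in brain. The part of these differences in the members' levels was not tested.

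Brain and lung differed less clearly from each other. Gbp5 was higher in brain by 1.56 (SE 0.44, adjusted p 0.0058), Gbp6 by 2.51 (SE 0.84, adjusted p 0.017) and Gbp11 by 3.25 (SE 1.27, adjusted p 0.0355), where 37.9% of all genes were higher in brain. Gbp4 was lower in brain, at -0.93 (SE 0.33, adjusted p 0.022), where 26.4% of all genes were lower. Gbp6 and Gbp11 had no count in 3 of the 4 lung libraries, so that the size of their difference is uncertain. The call of Gbp6 was lost without brain replicate 1 or lung replicate 3, that of Gbp4 without brain replicate 3 or 4 or lung replicate 3, and that of Gbp11 without lung replicate 2, 3 or 4. For Gbp2, brain minus lung was -0.10 (SE 0.54, adjusted p 0.88) with all libraries, and 1.16 (adjusted p 0.00125) without lung replicate 4. With the mouse, as read from the file names, as a block in place of library series, it was 1.17 (adjusted p 0.0041). Gbp3 was then also higher in brain than in lung (1.19, adjusted p 0.0071), whereas Gbp11 of this comparison and Gbp8 of lung against heart were no longer called.

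Per kilobase of exon, Gbp2 was the most abundant member in heart at 0 hr, with a median of 102 CPM per kb, followed by Gbp3 with 58.6. Gbp7 (24.6), Gbp9 (24.2) and Gbp5 (20.2 CPM per kb) were close together, with ranges that overlapped, and Gbp4 followed at 11.0. In brain the order was exchanged, with medians of 33.0 CPM per kb for Gbp3 and 19.8 for Gbp2, whose ranges overlapped. Gbp6, Gbp8, Gbp10 and Gbp11 had medians of at most 1.06 CPM per kb in every tissue. The values of Gbp6 and Gbp10 cover only part of their reads, so that their place among the members is uncertain.

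**Figure D1:**
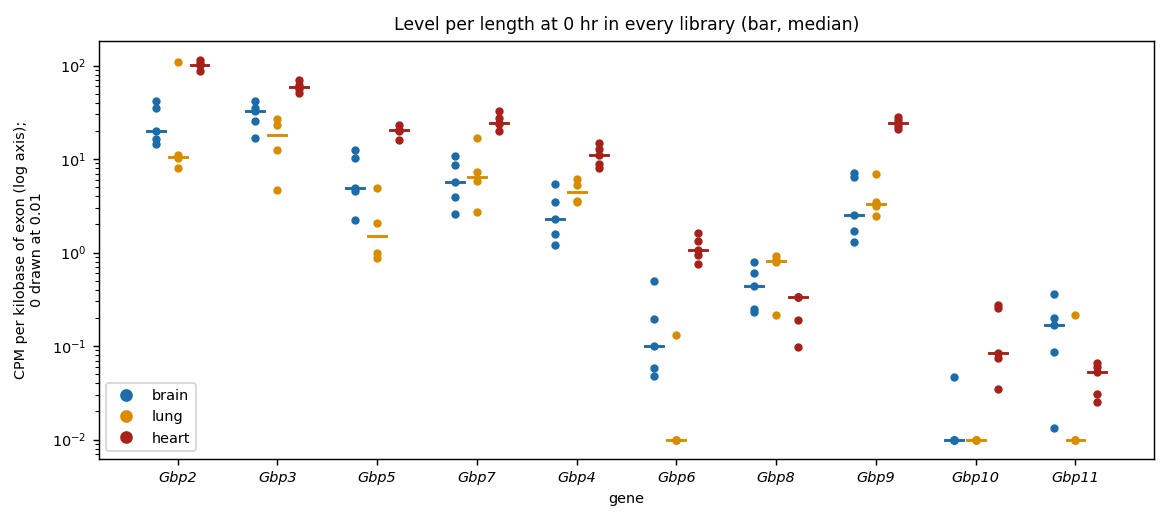
Level of the 10 members at 0 hr in CPM per kilobase of exon on a log axis, 1 point per library, with the median as a bar, in brain (n = 5), lung (n = 4) and heart (n = 5), and with libraries at 0 drawn at 0.01. Heart points lie above all brain points for Gbp2, Gbp3, Gbp4, Gbp5, Gbp6, Gbp7 and Gbp9. The counted levels of Gbp8, Gbp10 and Gbp11 are low in all tissues, and those of Gbp6 and Gbp10 cover only part of their reads.

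In heart, 9 of the 10 members were higher at 6 hr after LPS than at 0 hr, and none was lower. Of all 16024 genes tested in heart, 22.4% were higher at this time. The members' median log2 fold change was 3.67, beside -0.050 over all genes. Gbp8, which is expressed at a trace level, was the member not called.

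Gbp2, on chromosome 3, measured 323, 2679, 3122, 3890.1 and 4566 CPM at 6 hr, where the lowest value is that of replicate 5, and rose by 3.45 on the log2 scale (SE 0.49, adjusted p 2.5e-05), which is 11.0-fold. The other 4 libraries were above the whole 0 hr range by far, and replicate 5 lay just above it. Gbp3 measured 291, 1762, 3428, 3490.5 and 3532 CPM, up by 3.67 (SE 0.53). Gbp5 measured 238, 1203, 1835, 2305 and 3153 CPM, up by 3.67 (SE 0.51) from 105 to 152 CPM at 0 hr. Gbp7 rose less, by 2.32 (SE 0.31), from 112 to 183 CPM to 268, 693, 855, 947 and 1248 CPM. In each of these genes the same library, replicate 5, was the lowest.

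Of the members of chromosome 5, Gbp4 measured 134, 994, 1471, 1696 and 1698 CPM at 6 hr in heart and rose by 3.85 (SE 0.48, adjusted p 1.1e-05). Gbp9 rose by 1.48 (SE 0.24, adjusted p 8.2e-05), from 109 to 144 CPM to 248, 316, 319.8, 339 and 582 CPM. Both groups were separate for either gene. The close copies Gbp6 and Gbp10 rose by 3.82 (SE 0.60) and 3.79 (SE 0.68), Gbp6 to 11.4, 80.0, 94.4, 95.6 and 166 CPM and Gbp10 to 0.957 to 9.75 CPM. Gbp11, the annotated pseudogene, was near its detection limit at 0 hr (0.0675 to 0.175 CPM), measured 0.191, 4.55, 6.60, 6.85 and 6.89 CPM at 6 hr, and rose by 5.11 (SE 0.85, adjusted p 1.1e-04). Gbp8 measured 0.337 to 1.15 CPM at 0 hr and 0.701, 1.88, 1.91, 1.93 and 2.00 CPM at 6 hr, a log2 difference of 0.90 (SE 0.56, adjusted p 0.19). Without replicate 5 the same 9 members were called, with log2 fold changes from 1.59 (Gbp9) to 5.63 (Gbp11). Of all genes, 4453 were then higher, against 3597 with it.

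**Figure D2:**
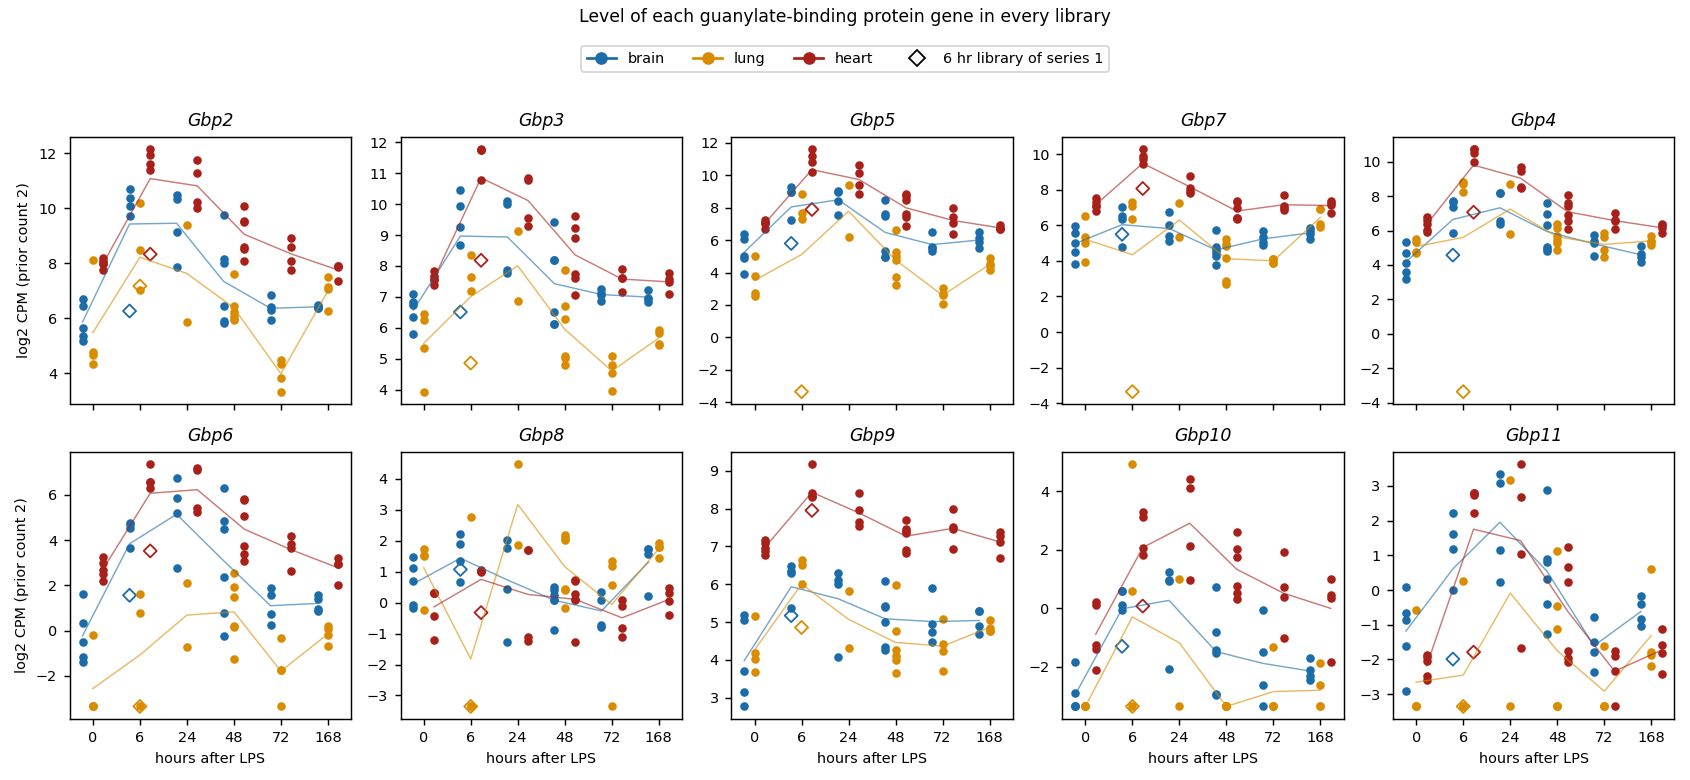
Level of each member as log2 CPM (prior count 2) against the hours after LPS, 1 point per library and a line through the group means, with tissues in colour, the 6 hr library of library series 1 as an open diamond, and libraries with 0 counts at -3.35. In heart the filled points rise from 0 to 6 hr in every panel, also for Gbp8, which was not called, and return towards the 0 hr level by 72 hr. The open diamonds of heart lie below the filled points of 6 hr, and those of brain stay near 0 hr in most panels.

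In brain, 7 members were higher at 6 hr and none lower, where 4.21% of 19234 genes were higher. The members' median log2 fold change was 2.99, beside 0.0039 over all genes. Gbp2 measured 77.0, 846, 1087, 1336 and 1659 CPM and rose by 4.38 (SE 0.66, adjusted p 2.1e-04), which is 20.8-fold. Its lowest value is replicate 6, which lay within the 0 hr range of 36.2 to 104 CPM, and the other 4 lay far above it.

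Gbp3 measured 91.1, 408, 611, 983 and 1409 CPM in brain at 6 hr, against 55.3 to 138 CPM at 0 hr, and rose by 2.93 (SE 0.59, adjusted p 0.0027). Gbp5 measured 55.5, 151, 503, 504 and 616 CPM, against 14.7 to 82.1 CPM, and rose by 3.56 (SE 0.65). Gbp4 measured 23.7, 57.9, 167, 206 and 209 CPM, against 8.92 to 40.1 CPM, and rose by 3.05 (SE 0.58). In all of these the groups overlapped only through replicate 6. Gbp6, with 0.283 to 2.96 CPM at 0 hr and 2.85, 12.3, 23.1, 26.0 and 27.1 CPM at 6 hr, had a log2 fold change of 5.26 (SE 0.84). Gbp9 rose by 2.36 (SE 0.38), from 6.72 to 36.5 CPM to 35.9 to 89.7 CPM. Gbp10 had no count in 3 libraries at 0 hr and 0.308 to 1.40 CPM at 6 hr, so that its fitted log2 fold change of 5.87 (SE 0.98) depends on how zeros are treated.

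The members that edgeR did not call in brain at 6 hr were Gbp7 (log2 fold change 1.18, SE 0.40, adjusted p 0.079), Gbp11 (2.20, SE 0.72, adjusted p 0.071) and Gbp8 (1.05, SE 0.44, adjusted p 0.18). DESeq2 called 9 members, all but Gbp8. With only the libraries of 0 and 6 hr in the edgeR fit, 3 members were called, Gbp2, Gbp6 and Gbp9, and Gbp3 (2.64, adjusted p 0.073), Gbp4 (2.89, adjusted p 0.071) and Gbp5 (3.31, adjusted p 0.067) were not. Without replicate 6, all 10 members were called, with Gbp8 at 1.33 (adjusted p 0.0499) and Gbp7 at 1.46 (adjusted p 0.014), and Gbp2 stood at 4.87. Of all genes, 1469 were then higher.

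In lung, only Gbp4 and Gbp5 passed the test at 6 hr, where 2.56% of 17058 genes were higher. Gbp5 measured 5.80, 6.52, 13.7 and 32.1 CPM at 0 hr and 0, 159, 201 and 454 CPM at 6 hr, and rose by 3.62 (SE 0.81, adjusted p 0.0097). Gbp4 measured 26.1, 26.7, 40.0 and 45.6 CPM at 0 hr and 0, 297, 421 and 460.0 CPM at 6 hr, and rose by 2.74 (SE 0.70, adjusted p 0.022). The 0 values are those of the shallow replicate 4, in which 3 counts correspond to 86.7 CPM, and the other 3 libraries lay above the 0 hr range. Gbp2 measured 132, 144, 356 and 1179 CPM, against 20.0 to 278 CPM at 0 hr, with a log2 fold change of 2.48 (SE 0.88, adjusted p 0.093). The 144 CPM is 5 counts of replicate 4, and the 1179 CPM is 810 counts of replicate 2. At 6 hr the TMM factors were 0.12 in replicate 4, 0.25 in replicate 2, 0.63 in replicate 1 and 0.79 in replicate 3. At 0 hr they were 0.71 to 1.05, and a low factor raises the CPM of a library. Gbp3 (1.72, SE 0.68, adjusted p 0.13), Gbp9 (1.72, SE 0.62, adjusted p 0.099) and Gbp7 (0.88, SE 0.72, adjusted p 0.47) were above 0 as well without passing. The median of all genes stood at -0.42 in this comparison, below the members' median of 2.61, and RLE scaling, which put it at -0.11, called 5 members, as did DESeq2. Leaving out replicate 4 kept Gbp4 and Gbp5 called (3.26 and 4.15) and added no member, with 412 of all genes higher. Both calls were lost without lung replicate 2 or replicate 3 of 0 hr, whereas Gbp2 was called without replicate 4 of 0 hr, its high library, at 3.81 (adjusted p 0.0070).

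The relation of Gbp2 to library series differed between times in brain and heart. Within library series 2, which holds 4 of the 6 hr libraries of brain and of heart, the mean log2 difference from 0 hr was 4.83 for Gbp2 in brain and 3.78 in heart. Within library series 1 it was -0.31 and 0.31, from 1 library at 6 hr in each tissue. The rise of Gbp2 at 6 hr was thus not seen at that size within library series 1. Over all members the difference there ran from -0.86 (Gbp11) to 1.30 (Gbp10) in brain and from -0.63 (Gbp8) to 0.93 (Gbp9) in heart. In heart Gbp5 stood at 0.82 and Gbp7 at 0.75, with Gbp8 and Gbp10 below 0. At 24 hr, with 1 library each of library series 1 and 2, the difference for Gbp2 was 2.57 in library series 1 and 2.49 in library series 2 in brain, and 2.19 and 2.02 in heart. For Gbp9 they were also close, with 0.87 and 0.85 in brain and 0.62 and 0.60 in heart. Other members differed between the series, such as Gbp4 (1.35 and 2.95) and Gbp7 (-0.36 and 0.69) in brain and Gbp11 (0.50 and 3.25) in heart. For Gbp2 in lung, library series 1 gave 0.72 at 6 hr and -0.59 at 24 hr, and library series 2 gave 4.07 at 6 hr. The 0.72 rests on 5 counts, and the 0 hr mean of library series 1 includes the high library at 278 CPM. At 24 hr in that series Gbp5 stood at 2.39, Gbp6 at 1.04, Gbp3 at 0.98, Gbp4 at 0.78 and Gbp8 at 0.25. Gbp9 stood at -0.095, Gbp7 at -0.47 and Gbp11 at -1.40, with few counts for Gbp6 and Gbp11, and Gbp10 had no count. Library series 4 has no 0 hr library and gave no such value.

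At 24 hr the members were still raised in heart, where 9 were higher against 9.07% of all genes. Gbp2 measured 1031, 1188, 2511 and 3463 CPM, with a log2 fold change of 2.54 (SE 0.50, adjusted p 0.0029). Gbp5 measured 451, 668, 1146 and 1566 CPM, at 2.56 (SE 0.53), and Gbp4 352, 372, 699.9 and 833 CPM, at 2.38 (SE 0.47). In each of the 3 genes the higher pair of values came from library series 4, and all libraries were above the 0 hr range. Gbp7 (1.00, SE 0.32, adjusted p 0.038) and Gbp9 (0.91, SE 0.26, adjusted p 0.025) were the least raised, and Gbp8 (0.86, SE 0.68) was not called. Leaving out 1 library at a time, Gbp7 was lost in 7 of 9 cases, Gbp9 without replicate 3 of 0 hr or replicate 4 of 24 hr, and Gbp11 without replicate 2 of 24 hr.

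Between 24 and 6 hr in heart edgeR called Gbp7 alone and DESeq2 Gbp3, Gbp4 and Gbp7, each lower at 24 hr. Gbp7 was lower at 24 hr with a log2 difference of -1.32 (SE 0.35, adjusted p 0.032), where 4.74% of all genes changed in either direction, and it was lost in 6 of 9 cases when 1 library was left out. Gbp7 measured 229, 243, 277 and 440.1 CPM at 24 hr. This comparison depends on heart replicate 5 at 6 hr. Without it 6 members were lower at 24 hr, namely Gbp2, Gbp3, Gbp4, Gbp5, Gbp7 and Gbp11, with Gbp4 at -1.95 (adjusted p 1.8e-04), and 4896 of all genes changed.

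In brain at 24 hr, 6 members were higher, against 6.52% of all genes, namely Gbp2, Gbp4, Gbp5, Gbp6, Gbp9 and Gbp10. Gbp2 measured 236, 569, 1295 and 1417 CPM, a log2 fold change of 2.78 (SE 0.64, adjusted p 0.0070). Gbp6 measured 6.64, 37.0, 57.5 and 109 CPM, at 4.27 (SE 0.84, adjusted p 0.0023). All 4 libraries of either gene exceeded the 0 hr range, with those of library series 4 highest. Gbp3 measured 219, 234, 1028 and 1105 CPM, at 1.74 (SE 0.61, adjusted p 0.064), and Gbp7 stood at 0.38 (SE 0.42). Gbp9 was lost in 7 of 9 cases when 1 library was left out, and Gbp10 without replicate 2 of 0 hr or replicate 1 of 24 hr. Between 24 and 6 hr no member was called in brain by edgeR or DESeq2, with 4 members at an unadjusted p under 0.05 and 0.291% of all genes changed. Without brain replicate 6 at 6 hr, Gbp2, Gbp9 and Gbp10 were lower at 24 hr, with Gbp2 at -2.16 (adjusted p 0.026), and 220 of all genes changed.

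Lung had 2 libraries at 24 hr, which differed widely. Gbp2 measured 57.9 and 680.2 CPM, Gbp4 55.6 and 413 CPM and Gbp5 72.1 and 674 CPM, the higher value always in replicate 3 of library series 4. EdgeR called no member there or between 24 and 6 hr, whereas DESeq2 called Gbp4 and Gbp5 at 24 hr and none between the times. At an unadjusted p under 0.05, 4 members stood at 24 hr and 0 between the times. Of all genes, 0.363% were higher at 24 hr and 0.00586% changed between 24 and 6 hr. Gbp5 came nearest, with 3.69 (SE 0.88, adjusted p 0.055), and was called without lung replicate 4 of 0 hr (4.57, adjusted p 0.026).

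**Figure D3:**
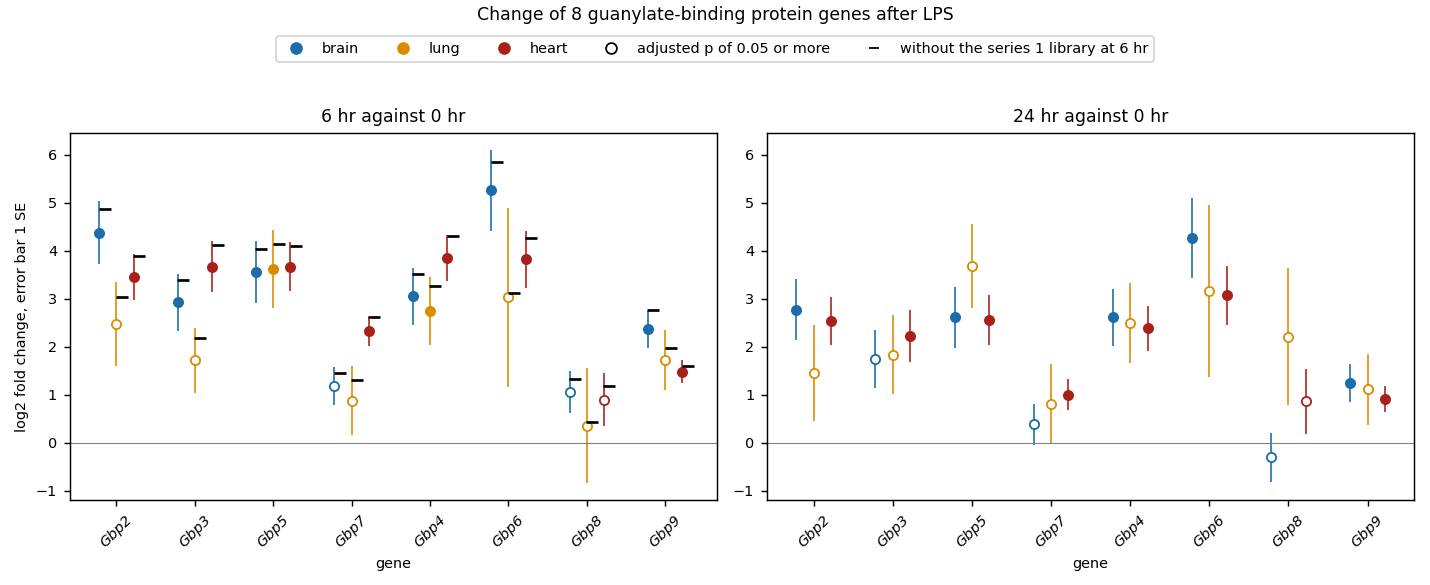
Log2 fold change against 0 hr with 1 SE for 8 members at 6 hr and at 24 hr in brain, lung and heart, where filled points have an adjusted p under 0.05 by edgeR and black dashes give the 6 hr value without the library of series 1. Gbp10 and Gbp11 are left out because their 0 hr libraries hold few or no counts. Gbp7, Gbp8 and Gbp9 show the smallest changes at 6 hr in heart, and each dash lies above its point.

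At 48 hr most members had come down. In brain Gbp4 (1.56, SE 0.53, adjusted p 0.047) and Gbp6 (3.09, SE 0.80, adjusted p 0.013) were still higher, where 8.11% of all genes were higher. Gbp6 ranged from 0.756 to 78.5 CPM with a median of 13.7 CPM, so that the groups overlapped. It was lost without replicate 3 of 48 hr, and Gbp4 was lost in 8 of 11 cases when 1 library was left out. In heart no member was called by edgeR, against 3.08% of all genes, with 3 members at an unadjusted p under 0.05 and with Gbp6 and Gbp10 called by DESeq2. In lung none was called by either tool, against 0.428% of all genes higher and 0.170% lower. At an unadjusted p under 0.05 stood Gbp6, above its 0 hr level, and Gbp7, below it. In heart the summed level of the 10 members at 48 hr was 2051 and 2984 CPM in library series 4, 846 and 2146 CPM in library series 1, and 1142 and 1298 CPM in library series 2. In brain it was 911 and 2325 CPM, 296 and 952 CPM, and 234 and 266 CPM, so that the libraries of 1 time spanned a wide range.

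At 72 and 168 hr no member was called in any tissue by edgeR or by DESeq2. At 72 hr the members at an unadjusted p under 0.05 were 2 in brain, 3 in lung and 1 in heart, and at 168 hr there were 0. In brain they were Gbp8, lower than at 0 hr, and Gbp9, higher. Those in lung, Gbp2, Gbp5 and Gbp7, were all lower, and Gbp9 in heart was higher. The shares of all genes higher at 72 hr were 2.98% in brain, 0.170% in lung and 0.275% in heart, and at 168 hr they were 0% in each. The shares lower at 72 hr were 0.546% in brain, 0.0234% in lung and 0% in heart. Gbp2 in heart ran from 217 to 490.0 CPM at 72 hr and from 163 to 241 CPM at 168 hr, near its 0 hr values of 218 to 290.2 CPM. Gbp2 in brain ran from 83.4 to 89.9 CPM at 168 hr, within its 0 hr range. In lung it ran from 10.0 to 22.1 CPM at 72 hr and from 77.5 to 182 CPM at 168 hr, against 20.0 to 278 CPM at 0 hr.

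**Figure D4:**
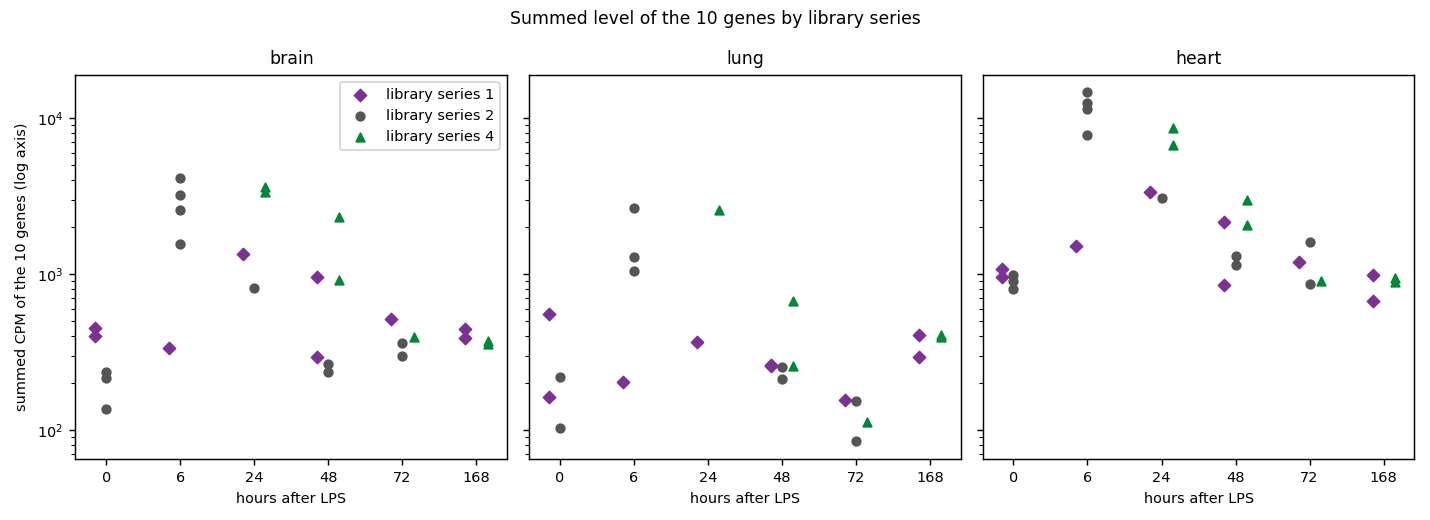
Summed level of the 10 members in CPM on a log axis, 1 point per library, against the hours after LPS in brain, lung and heart, with library series 1 as diamonds, 2 as circles and 4 as triangles. The single diamond at 6 hr in each tissue lies below the circles of that time, and at 24 hr the triangles lie highest.

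Whether the tissues responded differently was tested as an interaction. At 6 hr no member differed between brain and heart, where 0.636% of 22007 genes did, nor between brain and lung, where 13.3% did, by edgeR or DESeq2. At an unadjusted p under 0.05 there were 2 members (Gbp7 and Gbp11) in the first and 1 (Gbp10) in the second. The log2 difference of brain minus heart was 0.54 (SE 0.81) for Gbp2 and -1.40 (SE 0.59, adjusted p 0.31) for Gbp7. Between lung and heart only Gbp10 was called, higher in lung with a fitted log2 difference of 6.80 (SE 2.01, adjusted p 0.013), where 18.1% of all genes were called. It had 0 counts in all 4 lung libraries at 0 hr, so that this value depends on how zeros are treated, and 0, 0, 1.41 and 30.6 CPM at 6 hr. The highest value is 21 counts of lung replicate 2, and without that library Gbp10 was not called. Without the 6 hr libraries of library series 1, Gbp3 also differed, lower in lung at -1.98 (adjusted p 0.035), and 4365 of all genes were called. At 24 hr no member was called by either tool or stood at an unadjusted p under 0.05 in any pair of tissues, where 3.85% of all genes differed between brain and lung, 0.327% between brain and heart and 1.67% between lung and heart.

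Gbp2b, the further guanylate-binding protein gene of this annotation, lies between Gbp3 and Gbp2 on chromosome 3. It had at most 0.708 CPM in any library and too few counts for a test, after LPS as before. Its RefSeq promoter window also holds the ISRE core, with the first base at -137.

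Across the 18 group means the members kept together to different degrees. The correlation with the mean of the other members was 0.97 for Gbp5, 0.96 for Gbp3 and 0.93 for Gbp2, 0.80 for Gbp7 and 0.78 for Gbp9, and -0.02 for Gbp8, as a description over means that share library series and controls. The 5 genes outside the family whose means most resembled the members, out of 10613 genes, were Igtp (r = 0.96), Il18bp (0.96), Ifit3b (0.95), Ifi47 (0.95) and Osmr (0.95). Igtp and Ifi47 encode interferon-inducible GTPases of the immunity-related family, and Il18bp a secreted inhibitor of interleukin-18.

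The counts of the following gene lists at 6 hr stand beside 22.4% of all genes higher and 20.3% lower in heart, 4.21% and 2.23% in brain, and 2.56% and 2.27% in lung. Interferon-inducible GTPases of other families, the immunity-related GTPases, Mx proteins and very large GTPases, were higher at 6 hr in 11 of 14 genes in brain, 11 of 14 in heart and 7 of 13 tested in lung, and none was lower. The largest changes were those of Mx1 (5.50, SE 0.90) and F830016B08Rik (5.10, SE 0.88) in brain, of F830016B08Rik (6.50, SE 1.06) and Gm12185 (4.69, SE 0.65) in heart, and of F830016B08Rik (7.82, SE 1.90) and Mx2 (6.50, SE 1.39) in lung. At 24 hr 9 of 14 were higher in brain, against 6.52% of all genes, and 9 of 14 in heart, against 9.07%. An example was Tgtp1 (3.33, SE 0.58, in brain and 2.65, SE 0.56, in heart). At 0 hr 11 of 13 tested were lower in brain than in heart, where 22.8% of all genes were lower, the direction seen for 7 members.

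Of the genes that carry the interferon signal, the ligands had few counts. Of 8 ligand genes only Ifnb1 passed the count filter, in heart, where it was higher at 6 hr (2.75, SE 0.93, adjusted p 0.021), and the summed level of the 8 was at most 1.45 CPM in any heart library of that time, 0.155 CPM in any of brain and 11.9 CPM in any of lung. Among 7 receptor and kinase genes, 4 were higher and 1 lower at 6 hr in heart, with Jak2 at 1.44 (SE 0.26) and Ifngr1 at 1.20 (SE 0.23), and 0 were called in brain. Among 11 transcription factors and feedback genes, 10 were higher in heart and 8 in brain at 6 hr. Irf1, which binds the ISRE, was higher by 2.84 (SE 0.39) in heart and 1.49 (SE 0.37) in brain. Socs1 and Socs3, which restrain such signalling, were higher in heart by 6.55 (SE 0.90) and 4.07 (SE 0.63), and Socs3 in brain by 5.33 (SE 0.79). Irf7 was higher in lung by 4.29 (SE 0.76) at 6 hr and by 3.68 (SE 0.83) at 24 hr.

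The inflammasome and pyroptosis list, which acts beside the guanylate-binding proteins on intracellular LPS, had 7 of 8 tested genes higher in heart at 6 hr, 2 of 9 in brain and 1 of 9 in lung. Casp4, the caspase that senses LPS in the cytosol, was higher by 3.42 (SE 0.50) in heart and by 4.71 (SE 0.71) in brain at 6 hr, and by 2.60 (SE 0.50) and 3.78 (SE 0.71) at 24 hr. Nlrp3 was higher in heart by 4.86 (SE 0.82) at 6 hr, and Il1b by 5.34 (SE 1.03) in heart, 4.97 (SE 1.00) in brain and 4.34 (SE 0.84) in lung. The conjugation genes of the autophagy type, needed to bring guanylate-binding proteins to vacuoles, were mostly not called. In brain 0 of 10 were called at 6 hr, and in heart and lung 1 each was lower, Map1lc3b at -1.01 (SE 0.26) in heart and Map1lc3a at -2.27 (SE 0.66) in lung. The 5 prenylation genes act in attaching the lipid anchor or, as Rce1 does, in the steps after it. Of these, Rce1 alone was higher, by 0.94 (SE 0.19) in heart at 6 hr, near the share of all genes, and by 0.62 (SE 0.17) in brain at 24 hr.

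Some markers of other cells rose too, such as neutrophil genes in heart and lung, and their part in the members' rise was not tested. Of the neutrophil list, 6 of 7 tested genes were higher at 6 hr in heart, where the summed level went from 0.933 to 1.55 CPM at 0 hr to 0.957 to 60.0 CPM and Ly6g and Mmp8 were at 0 at 0 hr. In brain 1 of 7 was higher (Mmp8, 3.20, SE 0.92), with 4.94 to 47.7 CPM at 0 hr and 6.24 to 389 CPM at 6 hr. In lung 5 of 8 were higher, with 41.4 to 207 CPM at 0 hr and 0 to 3883 CPM at 6 hr. Of 8 macrophage and monocyte genes, 2 were higher and 1 lower in heart, against 22.4% and 20.3% of all genes. They summed to 27.5 to 46.0 CPM there at 0 hr and 26.3 to 158 CPM at 6 hr. Cd14, which ECs can induce too, was higher by 4.54 (SE 0.61) in heart and by 6.39 (SE 0.87) in brain. T and NK cell markers, whose cells make interferon gamma, had 0 genes called at 6 hr in each tissue, and summed to at most 1.36 CPM in heart and 3.83 CPM in brain at 6 hr. In heart 8 of 10 endothelial markers were lower at 6 hr, with a summed level of 4724 to 11522 CPM, and in brain 4 were lower and 1 higher.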

How the data were processed

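Ribosome-bound RNA of brain, lung and heart ECs was sequenced before and after LPS. The authors aligned reads with STAR 2.4.2 to mm10 and deposited raw read counts per gene from HTSeq 0.6.1, 1 file per sequencing run, with no normalization. Whether counting used strand is not given in the sources used here. The 217 runs were summed to 98 libraries. The 18 libraries with under 3% of reads on genes, all of library series 3, were left out. The 80 libraries used held 284457 to 43417945 counts. Rows that name no gene were left out of library sizes.

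Groups came from the labels. Genes were tested with edgeR 4.0.16 (R 4.3.3; TMM scaling, filterByExpr, quasi-likelihood F test) in 1 fit per tissue and in joint fits across tissues, with library series as a covariate, and p-values were adjusted by Benjamini-Hochberg over all genes tested, with a threshold of 0.05. The standard error (SE) is the log2 fold change over the square root of F. CPM used TMM library sizes, and log2 levels a prior count of 2. Fits that left out 1 library across tissues reused the dispersion of the full fit. Floors of 3 counts and read counts cover counting error only. The code was tested on simulated data. No 2 libraries of a group agreed within sampling noise (chi-square per degree of freedom at least 15.1, against 1.21 to 1.61 for runs of 1 library).

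The members are all genes named Gbp2 to Gbp11. The members and gene lists were chosen with earlier results of these data known. Members and list genes were named by role, and those not called are given with their values. Alternatives were DESeq2 1.42.0, RLE scaling, other filters, covariates and samples, each library left out, and, chosen after seeing the data, the fit without the 6 hr libraries of library series 1.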

Additional observations from a re-analysis of the deposited data

Results flagged for a closer look

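In 164 groups of a member's log2 CPM values, 25 held a library far from the others of its group, 18 below and 7 above, where chance alone flags about 1 in 20 groups.

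Of these, 6 were heart replicate 5 at 6 hr, the library that lay near the 0 hr level over the genes other than the members. It stood at 8.33 for Gbp2, 8.18 for Gbp3, 7.06 for Gbp4, 3.53 for Gbp6, -0.32 for Gbp8 and -1.79 for Gbp11. Brain replicate 6 at 6 hr, of the same library series, stood at 6.27 for Gbp2. The shallow lung replicate 4 at 6 hr had 0 counts for Gbp4, Gbp5 and Gbp7, drawn at -3.35.

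In brain at 24 hr, replicate 2 was low for Gbp9 (4.06) and Gbp10 (-2.06). Replicate 1 was low for Gbp8 in brain at 48 hr (-0.89) and apart at 168 hr (0.21). Lung replicate 4 at 0 hr was high for Gbp2 (8.12) and Gbp6 (-0.19), and lung replicate 3 at 0 hr was low for Gbp8 (-0.25). Lung replicate 3 at 6 hr was high for Gbp8 (2.77) and Gbp11 (0.26). In lung at later times, replicate 6 stood at 7.61 for Gbp2 at 48 hr, replicate 1 at -3.35 for Gbp8 and replicate 2 at -1.33 for Gbp10 at 72 hr, and replicate 1 at 0.60 for Gbp11 at 168 hr. In heart, replicate 1 was low for Gbp2 at 168 hr (7.35) and replicate 4 for Gbp8 at 48 hr (-1.28).

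The 6 hr change of Gbp10 differed between lung and heart by 6.80 in the interaction test, a value that rests on 21 counts of 1 lung library.

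The libraries left out for few reads on genes also carried counts of the members. In 10 of the 15 such libraries after LPS their summed level was above that of the left-out 0 hr library of the same tissue (53.3 CPM in brain, 76.1 CPM in heart, 0 CPM in lung), with 1 library per time and no test. In brain it was 302 CPM at 6 hr and 95.3 CPM at 24 hr. In heart it was 454 CPM at 6 hr, 209.9 CPM at 24 hr, 103 CPM at 48 hr and 89.2 CPM at 72 hr. In lung it was 25.3 CPM at 24 hr, 39.8 CPM at 48 hr, 36.7 CPM at 72 hr and 34.0 CPM at 168 hr. These lung values rest on 8, 53, 37 and 21 counts, and any count lies above the 0 CPM of lung at 0 hr. The other 5 were not above the 0 hr library of their tissue. They had 38.0 CPM at 48 hr, 43.7 CPM at 72 hr and 50.5 CPM at 168 hr in brain, 59.5 CPM at 168 hr in heart and 0 CPM in lung at 6 hr.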

How the results depend on the processing

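Of 237 counts of called members under other settings, 205 stayed within 1.5 times the reported count. Counts reported as 0 that stayed at 0 are among them, so that the 205 do not measure how stable the calls were. With only the 2 groups compared in the fit, the count was 3 (of 7 reported) in brain at 6 hr, 1 (of 2) in brain at 48 hr, 3 (of 0) in brain at 72 hr, 0 (of 2) in lung at 6 hr and 1 (of 0) in heart at 48 hr. With no low-count filter it was 5 in brain at 48 hr, 1 in brain at 72 hr, 2 in brain between 24 and 6 hr, 4 in lung at 6 hr, 1 in lung at 24 hr, 2 in heart at 48 hr, 3 in heart between 24 and 6 hr and 2 for lung against heart at 6 hr. With no term for library series it was 4 in brain at 48 hr, 1 in lung at 24 hr, 2 in heart at 48 hr and 2 for brain against lung at 0 hr. RLE scaling gave 5 in lung at 6 hr and 1 at 24 hr. DESeq2 gave 5 in lung at 6 hr, 2 in lung at 24 hr, 2 in heart at 48 hr and 3 in heart between 24 and 6 hr. Keeping libraries under 3% of reads on genes gave 0 in lung at 6 hr, 1 in heart at 48 hr and 2 in heart between 24 and 6 hr, and a minimum of 1000000 counts gave 1 in lung at 24 hr. Leaving out library series 3 is the reported analysis. Without the 6 hr libraries of library series 1, a setting chosen after seeing the data, it was 3 in brain and 6 in heart between 24 and 6 hr and 2 for lung against heart at 6 hr. The causes were not tested.

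The correlation of same-numbered libraries between a time and 0 hr ran from -0.57 to 0.73, which cannot decide whether replicate numbers pair libraries. At 0 hr, libraries sharing a mouse tag had a mean correlation of 0.21 between lung and heart, against -0.039 for other pairs. It was 0.031 against -0.0072 between brain and heart, and 0.0022 against 8.1e-05 between brain and lung. The reported tests between tissues held no term for the mouse. With the replicate block the count was 1 in brain at 24 hr and 0 at 48 hr.

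Leaving out 1 library gave 7 to 10 members in brain at 6 hr, 4 to 6 at 24 hr, 0 to 3 at 48 hr and 0 to 3 between 24 and 6 hr. In lung it gave 0 to 4 at 6 hr, 0 to 1 at 24 hr and 0 to 1 between the times. In heart it gave 9 to 9 at 6 hr, 7 to 9 at 24 hr, 0 to 1 at 48 hr and 0 to 6 between the times. At 0 hr it gave 2 to 5 for brain against lung, 7 to 7 for brain against heart and 7 to 9 for lung against heart. For the difference in response at 6 hr it gave 0 to 1 for brain against lung and 0 to 2 for lung against heart. Gbp2 of brain minus lung at 0 hr (-0.10) turned to 1.17 (adjusted p 0.0041) with a mouse block in place of library series and to 1.16 without lung replicate 4, and ran from -0.43 to 1.16 when 1 library was left out. Low depth limits lung most, where 3 counts of replicate 4 at 6 hr correspond to 86.7 CPM.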
